A study of Mus musculus with 8 samples.

Results

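Interferon-stimulated genes were followed in mouse CD4 T cells on the way to becoming pathogenic Th17 cells. The 34 genes were taken by symbol from the deposited gene count table of 54532 genes, each matching 1 row. They comprise 30 antiviral genes of the kind that type I interferon induces, and a second set of 4 genes made of Irf1 and the antigen-processing genes Tap1, Tap2 and Nlrc5. RNA came from primary CD4 T cells of the spleen, cultured for 2 days towards the pathogenic Th17 state. Of the 8 libraries, 4 carry the label wild type and 4 the label Cyp1b1 knockout (Cyp1b1-/-). Both groups had the same culture treatment, and the labels name no strain, age, cytokine mixture or exact allele. Nor do they tie a replicate to an animal or a culture, and the spread that p-values rest on is that of these libraries alone and may be technical.

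Type I interferons bind the IFNAR1 and IFNAR2 receptor pair and act through the kinases JAK1 and TYK2 to assemble ISGF3, a complex that contains STAT2 and IRF9. ISGF3 binds a promoter element, the ISRE, and switches on antiviral genes, among them Irf7, which feeds back on interferon production. Interferon gamma acts through another receptor pair with JAK1 and JAK2, and induces genes that carry the GAS element, among them Irf1, whose protein in turn drives the genes of class I antigen processing. T cells keep a basal level of many of these genes without infection.

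The targeted gene, Cyp1b1, went against its label. Its counts were 64, 34, 63 and 69 in wild type 1 to 4, but 2179, 3169, 3007 and 2069 in the libraries called knockout, where it rose 41.8-fold (edgeR adjusted p = 9.91e-07). A count over the whole gene does not show which exons are read, and every direction below rests on these labels. Library totals ran from 8918342 to 15667313 counts. All 12 T cell markers, such as Cd3e, Cd4 and Lck, were tested genes in these libraries, with a summed level of 4067 to 4243 CPM (counts scaled to the library total) in wild type and 4201 to 4384 CPM in knockout. Lck, Lat, Cd28 and Cd247 rose among them. Among genes of Th17 cells, Il17a and Ccr6 fell, Il23r rose, and Il17f and Batf did not pass. On the first component of the spread left after removing the label means, wild type 1, knockout 1 and knockout 4 were positive and the other 5 libraries negative. Calls that ended with knockout 2 and 3 against wild type 2 to 4, which leaves those 3 out, are given below for the 34 genes. They are also given for genes of the other interferon lists that are named below, and not for unnamed genes or cell markers.

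Basal expression of the genes covered a wide range. Levels per length are given in RPKM, here TMM-scaled CPM (not CPM of library totals) divided by gene length in kilobases. Samhd1, a phosphohydrolase that depletes the nucleotides retroviruses need, was highest at 110.2 ± 11.3 RPKM in wild type (SD, n = 4). Bst2, which encodes tetherin and holds budding virions on the cell surface, followed at 67.8 ± 3.03 RPKM, and Tap1 at 44.2 ± 2.02, Tap2 at 32.4 ± 0.92 and Nlrc5 at 29.1 ± 1.97 RPKM came next. In all, 18 of 34 genes stood above 5.99 RPKM, the median of tested genes in wild type. Several genes that respond strongly to interferon in infected cells were below that median. Isg15 stood at 3.53 ± 0.48 RPKM, Ifit1 at 1.04 ± 0.42 and Mx1 at 0.56 ± 0.20 RPKM, and 7 genes lay below 1 RPKM. Of these, Rsad2, Rtp4, Ifit3, Oasl2 and Ifi44 did not reach the low-count filter and were not tested.

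**Figure D1:**
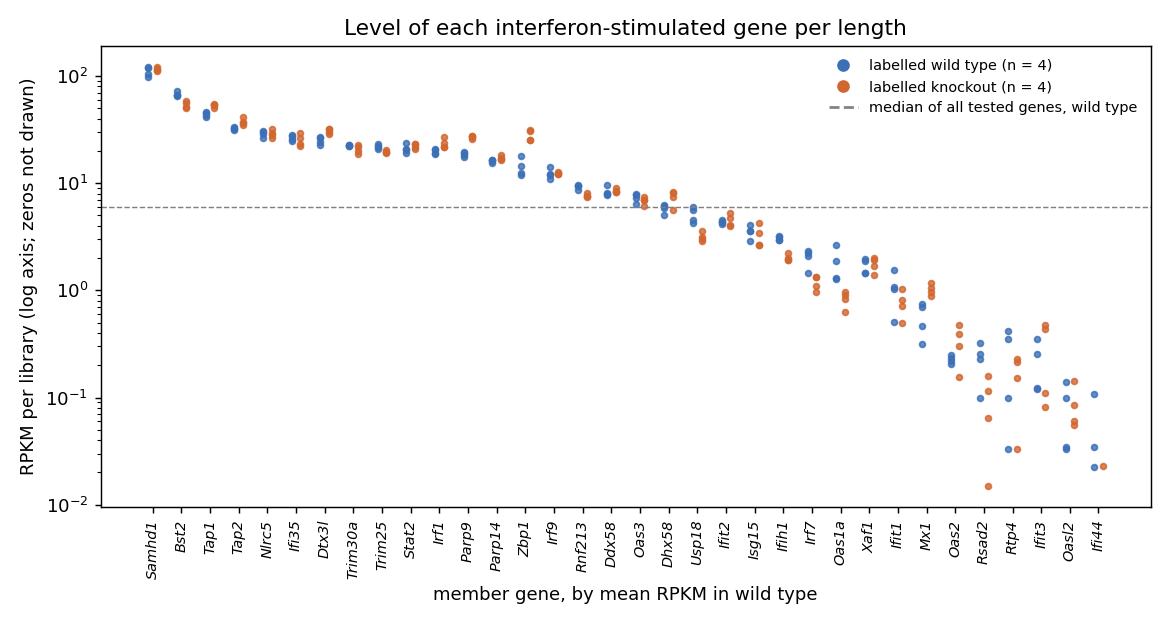
Level of each of the 34 genes in RPKM on a log axis, with 1 point per library, blue for wild type and orange for knockout labels, and genes ordered by their wild type mean (values of 0 are not drawn). The order runs from Samhd1 at 110.2 RPKM down to Ifi44, and 18 genes have a mean above the dashed median of tested genes, 5.99 RPKM.

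The genes left untested had few counts in any library. Rsad2, which encodes viperin, gave 6, 9, 20 and 16 counts in wild type 1 to 4 against 7, 4, 9 and 1 in knockout 1 to 4. The labels overlapped. Ifit3 had 46 counts over the 8 libraries, Oasl2 had 58 and Rtp4 had 42. Ifi44 had 13 counts, with 0 in 4 libraries, where a count of 0 still allows a level of up to 0.226 CPM. Fitted without the filter, none of the 5 passed, with an edgeR adjusted p from 0.0876 for Rsad2 to 0.905 for Oasl2. With 1 library left out Rsad2 reached the filter in 5 fits, and it was called lower in those without wild type 1 (-1.64, adjusted p = 0.0215) and without knockout 3 (-1.80, adjusted p = 0.0258).

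The antiviral genes did not move in a single direction between the labels. Of 30 antiviral genes, 5 rose, 6 fell, 14 did not pass and 5 were not tested, at a threshold of 0.05 on edgeR's quasi-likelihood p, adjusted over all tested genes by the Benjamini-Hochberg method. Of the 4 genes around Irf1, 3 rose and 1 did not pass. The background is high, since 30.4% of the 14428 tested genes were called, 15.7% as higher and 14.6% as lower. Over all genes 2272 were called higher and 2108 lower, a split that became 1745 and 2689 with library totals as the scale. The log2 fold changes (knockout minus wild type) of the 25 tested antiviral genes ran from -1.10 for Oas1a to 0.99 for Zbp1. Their median was 0.0031, beside -0.00099 over all tested genes, while Irf1, Tap1, Tap2 and Nlrc5 had a median of 0.23. In 14 genes every library of one label lay above every library of the other, 11 of them antiviral, beside 29.2% of all tested genes. These were the called genes without Dhx58, and Trim25, which was not called.

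**Figure D2:**
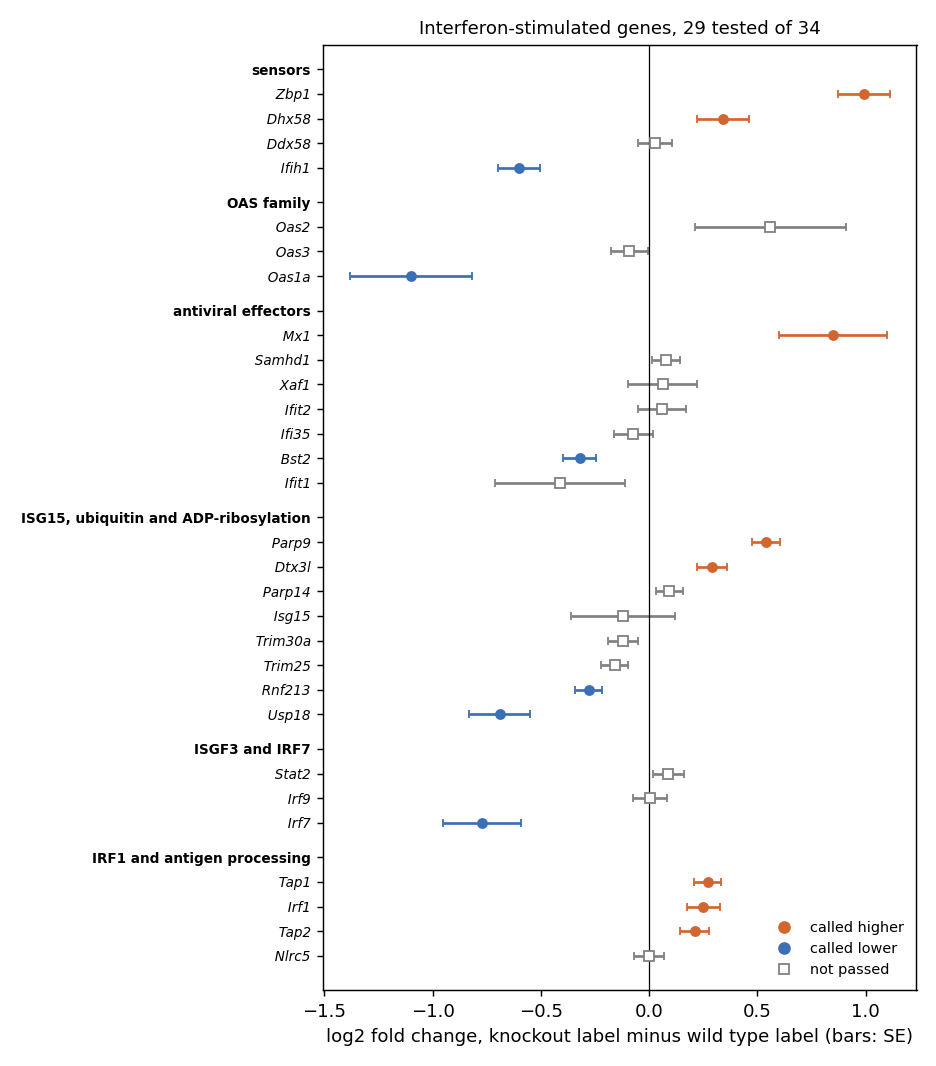
Log2 fold change (x axis, knockout label minus wild type label) of the 29 tested genes by role, with bars for the SE. Filled orange points were called higher, filled blue points called lower, and open squares did not pass. Called genes lie on either side of 0 among sensors, effectors and ubiquitin-related genes. Over all roles called genes run from -1.10 for Oas1a to 0.99 for Zbp1, while Tap1, Irf1 and Tap2 lie between 0.21 and 0.27.

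Summed over the list, the antiviral level did not separate the labels. The 30 antiviral genes together had 2248, 2501, 2191 and 2535 CPM of library totals in wild type replicates 1 to 4 and 2369, 2459, 2386 and 2404 CPM in knockout replicates 1 to 4. All 4 knockout values lay inside the wild type range. Samhd1 alone made up 41.4 to 44.6% of this sum. Leaving it out, the sum ran from 1283 to 1417 CPM in wild type and from 1335 to 1373 CPM in knockout. Irf1, Tap1, Tap2 and Nlrc5 together had 703.3, 725.1, 660.8 and 713.2 CPM in wild type and 757.2, 709.1, 745.3 and 825.6 CPM in knockout. Here knockout 2 lay inside the wild type range and the other knockout libraries above it.

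The cytosolic sensors split. Zbp1, a sensor of Z-form nucleic acid that can trigger necroptosis, rose most of all tested antiviral genes. It stood at 44.2, 50.8, 41.7 and 63.4 CPM in wild type replicates 1 to 4 and at 110.5, 89.9, 89.5 and 108.3 CPM in knockout replicates 1 to 4 (CPM of single genes are TMM-scaled). Every knockout library exceeded every wild type library. Zbp1 rose by 0.99 on the log2 scale (SE 0.12, edgeR adjusted p = 9.42e-06), and the call held in all 17 alternative fits.

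Ifih1, which encodes the long double-stranded RNA sensor MDA5, fell. It had 24.3, 26.3, 23.9 and 25.6 CPM in wild type replicates and 15.6, 18.03, 16.5 and 15.8 CPM in knockout replicates, with narrow groups that did not overlap. The log2 fold change was -0.60 (SE 0.097, edgeR adjusted p = 5.61e-05). Dhx58, the relative LGP2 that lacks signalling domains of its own, had 20.3, 20.2, 16.4 and 19.2 CPM in wild type and 18.5, 26.3, 27.1 and 24.4 CPM in knockout. Its labels overlapped because knockout 1 lay among the wild type libraries. It was called higher (0.34, SE 0.12, edgeR adjusted p = 0.029). The call ended without wild type 3 or 4 (adjusted p = 0.123 and 0.0596), without knockout 2, 3 or 4 (0.0617, 0.0929 and 0.0561), and with library totals (0.0622). Ddx58, which encodes RIG-I, the sensor of 5'-triphosphate RNA, had 54.5, 56.0, 57.0 and 67.2 CPM in wild type and 58.0, 60.2, 63.5 and 57.8 CPM in knockout, and did not pass (0.027, SE 0.078). The genes of the RIG-I-like receptors gave a fall, a rise and no call.

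**Figure D3:**
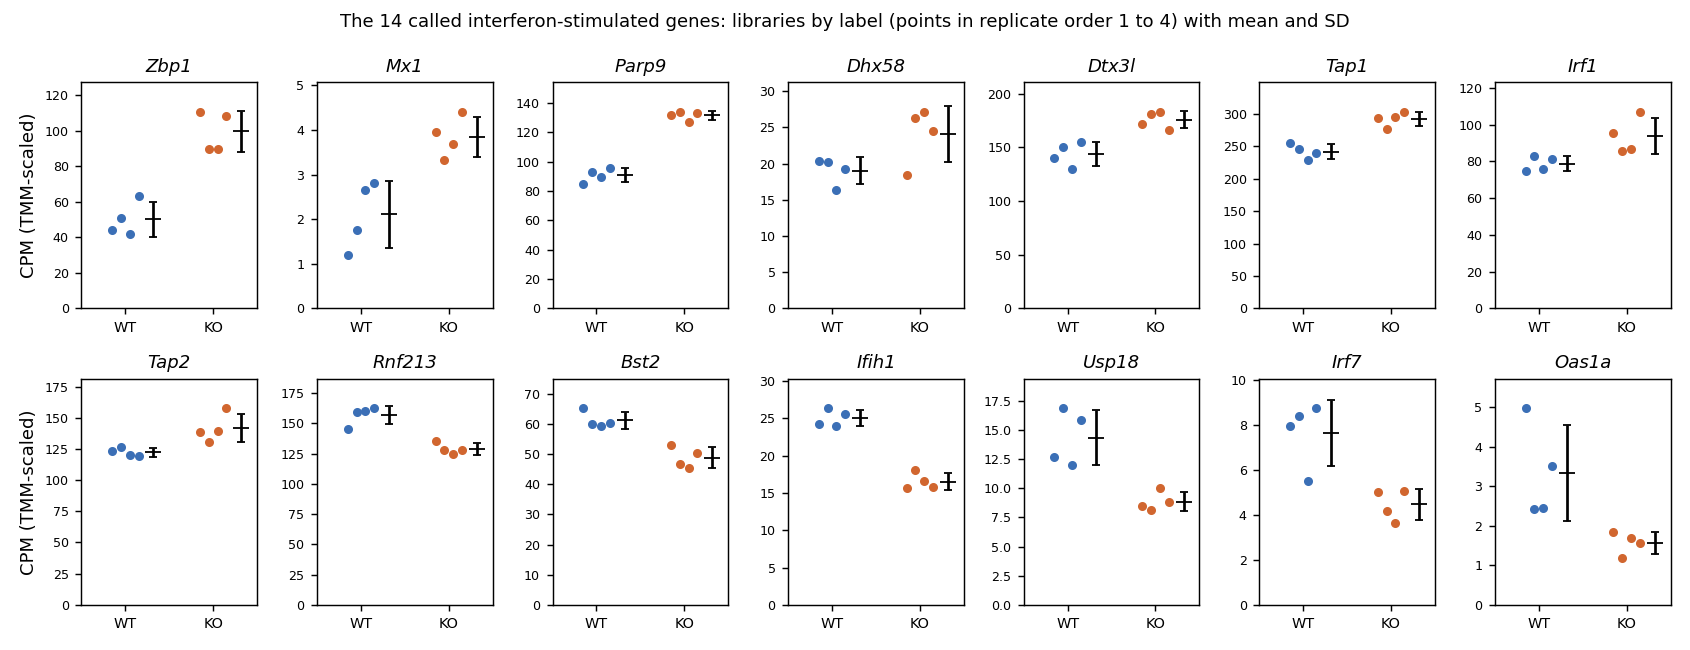
CPM (y axis, from 0) of each of the 14 called genes in the 4 libraries labelled wild type (WT, blue) and the 4 labelled knockout (KO, orange), points in replicate order, with mean and SD in black. The groups are separate in every panel but that of Dhx58, where knockout 1 at 18.5 CPM lies among the wild type libraries.

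Of the OAS family, whose enzymes make the 2'-5' oligoadenylates that activate RNase L, Oas1a alone was called. Oas1a fell from 4.97, 2.42, 2.44 and 3.51 CPM in wild type to 1.84, 1.18, 1.69 and 1.56 CPM in knockout. Wild type 1 was the highest library, and the groups did not overlap. The log2 fold change was -1.10 (SE 0.28, edgeR adjusted p = 0.00407). Of all 50-base windows in the longest Oas1a transcript, 57.6% also occur in transcripts of other genes, chiefly Oas1g and Oas1b, so reads could be split and the value is uncertain. Oas3, the most abundant member, had 45.1, 55.2, 50.9 and 56.3 CPM in wild type and 48.8, 43.3, 49.2 and 53.1 CPM in knockout and did not pass (-0.092, SE 0.086). Oas2 had 0.92, 1.10, 0.98 and 1.03 CPM in wild type and 2.12, 1.73, 0.69 and 1.36 CPM in knockout. Its knockout libraries lay on either side of the wild type values, and it did not pass (0.56, SE 0.35).

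Of 11 antiviral effectors 7 were tested, of which 1 rose, 1 fell and 5 did not pass. Mx1, a dynamin-like GTPase that blocks influenza virus, rose from 1.21, 1.76, 2.65 and 2.82 CPM in wild type to 3.96, 3.33, 3.69 and 4.41 CPM in knockout. Counts behind these values were small, 16 to 41 in wild type and 48 to 68 in knockout. The groups were separate, and the rise was 0.85 on the log2 scale (SE 0.25, edgeR adjusted p = 0.0128). The call ended without wild type 1, the lowest library (0.64, adjusted p = 0.054), and with knockout 2 and 3 against wild type 2 to 4 (0.51, adjusted p = 0.23).

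Bst2 fell from 65.3, 59.9, 59.4 and 60.2 CPM in wild type to 53.0, 46.7, 45.3 and 50.4 CPM in knockout. The groups did not overlap, and the log2 fold change was -0.32 (SE 0.076, edgeR adjusted p = 0.00224). Samhd1, by far the most abundant effector, had 949.5, 1090, 892.9 and 1101 CPM in wild type and 1026, 1113, 1072 and 1047 CPM in knockout, and did not pass (0.078, SE 0.066). Ifit2, which binds viral RNA with its relatives and can promote cell death, stood at 17.0 ± 0.57 and 17.7 ± 2.32 CPM. Ifit1, which binds RNA lacking cap methylation, had a lower mean in knockout (2.02 ± 0.60 against 2.76 ± 1.12 CPM), with overlapping libraries. Xaf1, an antagonist of the apoptosis inhibitor XIAP, and Ifi35 also did not pass, at 0.062 (SE 0.16) and -0.072 (SE 0.089) on the log2 scale.

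Of 8 genes that modify proteins with ISG15, ubiquitin or ADP-ribose, 2 rose and 2 fell. Parp9 and Dtx3l, which encode a mono-ADP-ribosyltransferase and a ubiquitin ligase that work as a complex, rose together. Parp9 had 84.9, 92.5, 89.3 and 95.8 CPM in wild type and 131.4, 133.8, 127.1 and 133.3 CPM in knockout, a wide gap beside the spread within either label. Its log2 fold change was 0.54 (SE 0.065, edgeR adjusted p = 1.34e-06), the smallest adjusted p among the 34 genes. Dtx3l had 140.0, 150.3, 129.5 and 155.5 CPM in wild type and 171.9, 181.6, 183.2 and 166.4 CPM in knockout, again without overlap (0.29, SE 0.068, edgeR adjusted p = 0.00241). Both genes lie head to head on chromosome 16 (GRCm38), Parp9 on the plus strand from 35938470 to 35972605 and Dtx3l on the minus strand from 35926511 to 35939151. Their annotated spans overlap by 682 bases, and it is not known whether counting used strand, so reads from that stretch could not be assigned with certainty. Parp14, the neighbouring macrodomain gene from 35832874 to 35871544 on the minus strand, had 154.1, 150.8, 144.9 and 152.9 CPM in wild type and 170.7, 160.5, 153.4 and 158.0 CPM in knockout. Knockout 3 lay among the wild type libraries, and Parp14 did not pass (0.092, SE 0.062).

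Usp18, the protease that removes ISG15 and also blocks signalling at IFNAR2, fell. It had 12.6, 16.9, 11.98 and 15.8 CPM in wild type and 8.49, 8.11, 9.99 and 8.82 CPM in knockout. All knockout libraries were below 10 CPM and all wild type libraries above it, and the change was -0.69 (log2, SE 0.14, edgeR adjusted p = 0.000487). Rnf213, a very large ubiquitin ligase with antimicrobial roles, had 145.6, 159.0, 160.1 and 162.5 CPM in wild type and 135.6, 127.9, 124.3 and 127.6 CPM in knockout. It fell by 0.28 on the log2 scale (SE 0.064, edgeR adjusted p = 0.00172). Isg15 itself, the ubiquitin-like modifier, had only 26 to 45 counts per library and did not pass (-0.12, SE 0.24).

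Trim25, the ubiquitin ligase that helps activate RIG-I, stood just outside the threshold. It had 125.8, 132.9, 119.6 and 129.2 CPM in wild type and 112.7, 113.4, 109.1 and 118.0 CPM in knockout. Its groups did not overlap, yet its edgeR adjusted p was 0.0587 and its change -0.16 (log2, SE 0.064). With library totals, with DESeq2, over protein-coding genes alone and with knockout 2 and 3 against wild type 2 to 4, it was called lower (adjusted p = 0.0145, 0.0363, 0.0332 and 0.0477). Trim30a, a mouse TRIM protein that restrains Toll-like receptor signalling, did not pass at 92.1 ± 1.11 and 85.0 ± 7.39 CPM.

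Of the transcription factors of the type I response, Irf7 fell while Stat2 and Irf9 did not pass. Irf7, the master regulator of the interferon alpha genes, had 7.95, 8.37, 5.51 and 8.73 CPM in wild type and 5.02, 4.16, 3.61 and 5.06 CPM in knockout. Wild type 3, the lowest of its label, still lay above the highest knockout library. The change was -0.77 (log2, SE 0.18, edgeR adjusted p = 0.00251). The annotated ends of Irf7 and of Phrf1 on the other strand overlap by 45 bases, and Phrf1 has 15041 counts over all libraries against 650 for Irf7, so the share of Irf7 counts from that stretch is uncertain. Stat2 had 120.9, 140.8, 113.0 and 123.8 CPM in wild type and 137.2, 124.7, 130.3 and 136.5 CPM in knockout (0.087, SE 0.071). Irf9 had 59.4, 66.1, 63.8 and 76.9 CPM in wild type and 65.6, 69.1, 65.6 and 66.4 CPM in knockout (0.0031, SE 0.078). In both genes the knockout values lay within the wild type range.

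Irf1 and the peptide transporter genes showed small rises. Irf1 had 74.7, 83.1, 75.9 and 81.2 CPM in wild type and 95.3, 85.8, 86.5 and 106.9 CPM in knockout. The gap between the labels was narrow, from wild type 2 to knockout 2, and the log2 fold change was 0.25 (SE 0.076, edgeR adjusted p = 0.0143). The call ended without wild type 3 (0.23, adjusted p = 0.0556), without knockout 4 (0.19, adjusted p = 0.0706) and with knockout 2 and 3 against wild type 2 to 4 (0.11, adjusted p = 0.267).

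Tap1 and Tap2 encode the chains of the transporter that carries peptides into the endoplasmic reticulum for class I loading. Tap1 had 254.6, 245.7, 228.3 and 239.4 CPM in wild type and 293.1, 277.0, 295.2 and 303.2 CPM in knockout, a clear separation (0.27, SE 0.061, edgeR adjusted p = 0.00155). Tap2 had 123.4, 126.8, 120.1 and 119.1 CPM in wild type and 138.8, 130.6, 139.3 and 157.6 CPM in knockout (0.21, SE 0.068, edgeR adjusted p = 0.0213). The Tap2 call ended without wild type 3 or 4 (adjusted p = 0.0699 and 0.0698), without knockout 4 (0.0891), with library totals (0.0768) and with knockout 2 and 3 against wild type 2 to 4 (0.0995). Nlrc5, the transactivator of class I genes, did not pass. It had 243.3, 256.9, 225.4 and 263.2 CPM in wild type and 251.6, 226.3, 239.3 and 270.7 CPM in knockout, with means of 247.2 and 247.0 CPM (-0.0008, SE 0.069). Both labels covered nearly the same span.

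Genes downstream in class I presentation went in either direction. Of 21 listed, all tested, 4 rose, 6 fell and 11 did not pass, beside 30.4% of all tested genes called. The median log2 fold change was -0.030. With knockout 2 and 3 against wild type 2 to 4, the fall of B2m and the rises of Psmb10 and Calr were no longer called (edgeR adjusted p = 0.0549, 0.673 and 0.0516). In that fit Tapbp was called lower (-0.22, adjusted p = 0.01) and Pdia3 higher (0.19, adjusted p = 0.0157). H2-K1, a classical class I heavy chain, fell from 1649 ± 58.1 to 1367 ± 57.2 CPM (-0.27, SE 0.055, edgeR adjusted p = 0.000654), in the same libraries in which Tap1 rose. H2-Q6 and H2-Q7, non-classical Qa-2 genes, had log2 fold changes of -1.60 and -1.26 and fell. Of the 50-base windows in the longest transcript of each, 32% and 34.9% are shared with other genes, each other among them, so their separate values are uncertain. Psmb9 and Psmb8, chosen after their values were seen, encode immunoproteasome subunits and lie beside Tap1 and Tap2. They rose by 0.29 (SE 0.069) and 0.25 (SE 0.066), and the Psmb9 and Tap1 spans overlap by 212 bases on opposite strands. Tap1, Tap2, Psmb8, Psmb9 and H2-K1 lie on the same chromosome as Cyp1b1, at least 45.5 Mb away, and H2-Q6 and H2-Q7 lie there at 44.3 Mb.

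**Figure D4:**
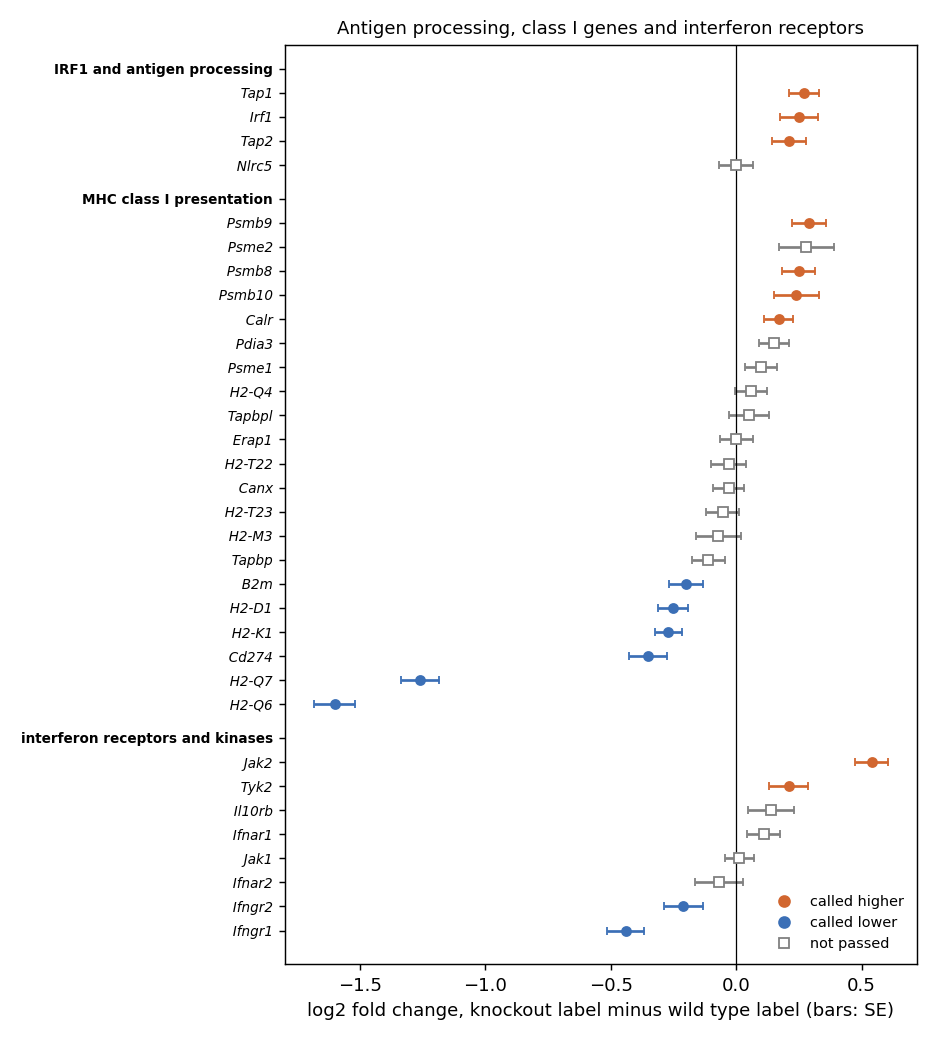
Log2 fold change (x axis, knockout label minus wild type label, bars for the SE) of Irf1 and the antigen-processing genes, of listed class I presentation genes and of listed interferon receptor and kinase genes. Filled orange points were called higher, filled blue points called lower and open squares did not pass. The transporter and immunoproteasome genes lie at 0.21 to 0.29 while H2-K1, H2-Q7 and H2-Q6 lie at -0.27, -1.26 and -1.60.

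Upstream of these genes, transcripts of type I interferons were hardly seen. Of 21 interferon genes, 16 had 0 counts in all 8 libraries together, among them Ifnb1, which allows a level of up to 0.0274 CPM over the libraries. The only 1 tested was Ifng, at 1.98 ± 0.88 CPM in wild type and 1.11 ± 0.30 CPM in knockout. It did not pass (-0.83, SE 0.34, edgeR adjusted p = 0.0668), and it was called lower without wild type 4 (-1.01, adjusted p = 0.0403). Ifnz, next in level, had 9 counts in all.

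Of 10 receptor and kinase genes, 2 rose, 2 fell, 5 did not pass and 1 was not tested, beside 30.4% of all tested genes called. Jak2, the kinase of the interferon gamma receptor and of many cytokine receptors, rose from 378.3 ± 26.8 to 550.9 ± 33.5 CPM (0.54, SE 0.065, edgeR adjusted p = 1.10e-06). Ifngr1, the ligand-binding chain for interferon gamma, fell from 111.0 ± 8.78 to 82.1 ± 5.90 CPM (-0.44, SE 0.074, edgeR adjusted p = 9.14e-05). Ifngr2 fell by 0.21, a call that ended in 6 of 8 fits without 1 library, those without wild type 2, 3 or 4 and knockout 1, 3 or 4, with adjusted p from 0.0704 to 0.113. It ended without a low-count filter (0.241) and with knockout 2 and 3 against wild type 2 to 4 (0.145) as well. The type I receptor genes Ifnar1 and Ifnar2 did not pass (0.11 and -0.070).

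Of 15 genes for nucleic acid sensing and interferon induction, none rose, 2 fell, 12 did not pass and 1 was not tested, with a median of -0.024. Irf8, a factor of myeloid and B cells that activated T cells also express, fell from 72.1 ± 2.19 to 44.6 ± 2.21 CPM (-0.69, SE 0.072). Mb21d1, the cytosolic DNA sensor cGAS, fell from 14.3 ± 2.53 to 10.4 ± 0.73 CPM (-0.46, SE 0.13, edgeR adjusted p = 0.00949), a call that ended without wild type 3 (-0.34, adjusted p = 0.0662) and with knockout 2 and 3 against wild type 2 to 4 (adjusted p = 0.0521). Of 12 negative regulators, 3 rose, 3 fell and 6 did not pass, with a median of -0.12, beside 30.4% of all tested genes called. With knockout 2 and 3 against wild type 2 to 4, the rises of Ptpn6 and Nlrx1 and the fall of Pias3 were no longer called (edgeR adjusted p = 0.37, 0.248 and 0.0848). In that fit Socs1 and Socs3 were called lower (adjusted p = 0.00681 and 0.0308). Ptpn1, a phosphatase of JAK2 and TYK2, rose by 0.28 (SE 0.061). Tnfaip3, the ubiquitin editor A20, fell by 0.37 (SE 0.072), and Otud5, a deubiquitinase, by 0.27 (SE 0.065).

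Promoters were read for the genes that RefSeq's table covers, 24 of 34 (GRCm38.p6, 250 bases before to 50 after a start, 28 windows). Dhx58, Oas2, Mx1, Usp18, Zbp1, Rtp4, Parp9, Parp14, Tap2 and Nlrc5 have no entry there. The ISRE core GAAANNGAAA, searched on both strands, occurred in 12 of these windows, in 11 genes, beside 3.44% of 32851 promoter windows of the same length. All 11 genes are antiviral, but so are 22 of the 24 genes read. The Irf1 set has only 3 windows, from 2 genes, so the motifs cannot be compared between the sets. The GAS element TTCNNNGAA, which reads the same on both strands, occurred in 6 windows beside 8.3%. These lie in 6 genes, 5 of them antiviral. Such matches describe letters and not binding. The windows below are those of 3 antiviral genes that fell, and the first of the 2 windows of Irf1, which rose. Each printed window holds a match. Capitals mark ISRE and GAS matches, and all are printed in the direction of the gene. They are Ifih1 at chr2:62646206-62646505 (minus strand), Oas1a at chr5:120907476-120907775 (minus strand), Bst2 at chr8:71537423-71537722 (minus strand) and Irf1 at chr11:53769764-53770063 (plus strand).
Ifih1: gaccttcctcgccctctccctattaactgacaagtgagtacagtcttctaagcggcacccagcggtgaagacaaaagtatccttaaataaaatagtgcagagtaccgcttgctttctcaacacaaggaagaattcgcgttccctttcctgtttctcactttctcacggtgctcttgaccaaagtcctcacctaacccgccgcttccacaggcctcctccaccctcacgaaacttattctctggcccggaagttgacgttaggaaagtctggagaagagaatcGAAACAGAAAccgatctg
Oas1a: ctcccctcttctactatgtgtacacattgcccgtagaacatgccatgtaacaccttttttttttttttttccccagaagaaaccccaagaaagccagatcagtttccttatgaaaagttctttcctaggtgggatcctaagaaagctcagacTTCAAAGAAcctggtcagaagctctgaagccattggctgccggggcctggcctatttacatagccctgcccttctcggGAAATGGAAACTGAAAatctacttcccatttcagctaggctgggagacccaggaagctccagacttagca
Bst2: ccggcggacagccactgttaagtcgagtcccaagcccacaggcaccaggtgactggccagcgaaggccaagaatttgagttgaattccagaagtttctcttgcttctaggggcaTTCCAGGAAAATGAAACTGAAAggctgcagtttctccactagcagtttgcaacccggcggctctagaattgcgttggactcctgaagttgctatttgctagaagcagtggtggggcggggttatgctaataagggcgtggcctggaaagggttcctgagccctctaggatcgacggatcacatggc
Irf1: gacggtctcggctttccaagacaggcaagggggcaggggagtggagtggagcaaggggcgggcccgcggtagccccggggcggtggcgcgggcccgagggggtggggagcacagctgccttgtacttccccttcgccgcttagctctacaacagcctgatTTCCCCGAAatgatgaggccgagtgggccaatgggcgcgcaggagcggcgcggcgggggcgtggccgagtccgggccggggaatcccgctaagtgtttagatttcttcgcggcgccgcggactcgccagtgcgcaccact

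In Ifih1 the ISRE match GAAACAGAAA begins 33 bases into the transcribed part. Oas1a has overlapping ISRE matches that begin 20 and 14 bases before its start, and a GAS match 98 bases before it. Bst2 has overlapping ISRE matches from 130 and 124 bases before its start, and its GAS match at 136 bases before the start overlaps the first of them. The printed Irf1 window has the GAS match TTCCCCGAA 90 bases before the start and no ISRE match. The second window of Irf1 holds neither motif. The windows of Irf7 and Rnf213, which fell, and of Tap1 and Dtx3l, which rose, hold neither motif. Among genes with an ISRE match, Ifih1, Oas1a and Bst2 fell, while Ddx58, Oas3, Stat2, Trim30a, Isg15 and Ifit1 did not pass and Ifit3 and Rsad2 were not tested.

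Within labels the antiviral genes showed some order among libraries. The same ranks were not taken over all tested genes, so this order is not shown to be particular to antiviral genes. Wild type 4 was the highest wild type library in 12 of 25 tested antiviral genes and the lowest in none, and wild type 3 was the lowest in 13. In knockout, replicate 3 was the lowest library in 12 of 25 genes and replicate 1 the highest in 10. These median deviations were small, from -0.081 to 0.080 on the log2 scale.

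Markers of other spleen cells moved with the labels as well. The counts of calls below stand beside 30.4% of all tested genes called. Of 15 B cell markers, none rose and 13 fell, and their summed level ran from 527.8 to 808.2 CPM in wild type and from 416.4 to 582.1 CPM in knockout, with no marker at 0. Ighm, which did not pass, had means of 345.9 and 342.5 CPM, and the other 14 markers summed to 240.0 to 351.4 CPM in wild type and 138.8 to 164.5 CPM in knockout. Of 7 conventional dendritic cell markers only 3 were tested, and 2 of them fell. The sum of all 7 was 29.1 to 31.5 CPM in wild type and 11.4 to 18.1 CPM in knockout, with Clec9a and Cd209a at 0. Of 11 macrophage and monocyte markers only 2 were tested, and 1 fell. The sum of all 11 was 12.8 to 17.7 CPM in wild type and 7.22 to 10.4 CPM in knockout, with C1qa at 0. For plasmacytoid dendritic cells, major producers of type I interferon that also carry much Bst2 and Irf7, the defining marker Siglech had 4 counts in all 8 libraries. Of 6 listed, 4 were tested and 3 rose, while Ccr9 went the other way (-1.20 on the log2 scale) and did not pass. The sum was 118.7 to 128.5 CPM in wild type and 147.2 to 165.0 CPM in knockout, nearly all of it Ptprs and Pacsin1. Of 9 CD8 T cell and NK cell markers 6 were tested and 3 fell. The sum of all 9 was 48.8 to 55.2 CPM in wild type and 31.6 to 41.2 CPM in knockout. Of 7 neutrophil markers only 2 were tested, Ly6g and Cxcr2, and both rose. The sum of all 7 was 15.2 to 25.5 CPM in wild type and 31.5 to 48.3 CPM in knockout, with S100a9 at 0 and S100a8 at 1 count. The part of any of these in the falls of Bst2, Irf7, Ifih1, Irf8 or H2-K1, or in the rises, was not tested. In bulk RNA, fewer cells of a type and less RNA per cell cannot be told apart.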

How the data were processed

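Per the labels' protocols, polyadenylated RNA from 4 wild type and 4 knockout libraries was fragmented and copied with random hexamers, with no strand-marking step named. The authors deposited whole-number counts per gene, unnormalized, with a gene length used here for RPKM. The submitters' processing notes name fastp alone. Aligner, counter, annotation, build and strand setting were not given in the sources used here. All 34 members have the same start and end in GENCODE M21, so positions are GRCm38.

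Counts were analysed with edgeR 4.0.16 (limma 3.58.1, R 4.3.3): filterByExpr (minimum count 10, total 15; 14428 of 54532 genes kept), TMM, robust quasi-likelihood F-test on genotype alone, two-sided, Benjamini-Hochberg over all tested genes. The SE of a log2 fold change was its size divided by the square root of its F. The steps were tested on simulated data. Replicates differed by more than sampling noise (chi-square per gene 3.69 to 12.3 over 12 pairs), so each counted once. No molecular identifiers are named, so limits for a count of 0 (3 counts) cover counting error only.

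Members and lists were chosen with earlier results of these data known. Values in every library are given for Irf1, Tap1, Tap2, Nlrc5 and up to 3 genes per other role (smallest p if called, then highest CPM), plus, chosen after their values were seen, Dtx3l, Trim25 and Rsad2. Up to 3 called genes per other list, or 2 where none was called, are named by p or level; other names were chosen after their values were seen. Some genes of these lists are not reported here.

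Alternatives were DESeq2 size factors, library totals, no filter, CPM of at least 1 in 4 libraries, a replicate block, limma-voom, DESeq2 1.42.0, only protein-coding genes, each library left out, and knockout 2 and 3 against wild type 2 to 4.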

Additional observations from a re-analysis of the deposited data

Results flagged for a closer look

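In 58 groups of 4 libraries (29 tested genes, each in both labels), 1 value stood apart from its group by Dixon's criterion, where chance alone marks about 1 group in 20. It was Bst2 in wild type 1, at 65.3 CPM, while the other wild type libraries lay between 59.4 and 60.2 CPM. The fall of Bst2 kept its direction and its call without this library.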

How the results depend on the processing

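Of 14 called genes, 10 stayed called with the same sign in all 17 alternative fits (Ifih1, Oas1a, Irf7, Usp18, Zbp1, Bst2, Parp9, Dtx3l, Rnf213 and Tap1), and Dhx58, Mx1, Irf1 and Tap2 did not. Over the 29 tested genes and these fits, 451 values kept direction and call, 16 lost the call, 4 gained it and 22 changed sign. The sign changes were in Irf9, Ddx58, Nlrc5, Xaf1 and Ifit2, none of them called: Irf9 was at -0.0006 with DESeq2 size factors and in DESeq2, -0.047 with library totals, -0.0002 with CPM of at least 1, -0.012 over protein-coding genes and -0.029 with knockout 2 and 3 against wild type 2 to 4. Ddx58 was at -0.023 with library totals, Nlrc5 at 0.039 without a filter and Xaf1 at -0.18 with the reduced set of libraries. With 1 library left out, Irf9 ran from -0.051 to 0.074, Ddx58 from -0.0096 to 0.093, Xaf1 from -0.013 to 0.16, Nlrc5 from -0.048 to 0.042 and Ifit2 from -0.02 to 0.12. Receptor and kinase genes called higher became 1 with DESeq2 size factors, library totals, DESeq2, limma-voom, protein-coding genes and the reduced set, and those called lower 1 without a filter and with the reduced set. Negative regulators called lower became 6 with library totals and 5 over protein-coding genes, and those called higher 1 with the reduced set. Class I genes called higher became 2 with library totals, sensing genes called higher 1 without a filter, and, with the reduced set, Irf1 and antigen-processing genes called higher became 1 and other interferon-stimulated genes called higher 7. With 1 library left out, the counts called higher and lower ran from 4 to 5 and 6 to 7 for antiviral genes (the seventh is Rsad2, which the filter keeps in those fits), from 1 to 3 and 0 to 0 for Irf1 and antigen processing, from 0 to 0 and 0 to 1 for interferon genes, from 1 to 2 and 1 to 2 for receptors and kinases, from 0 to 1 and 1 to 3 for sensing, from 1 to 3 and 2 to 3 for negative regulators, from 2 to 5 and 5 to 6 for class I genes, from 8 to 13 and 4 to 9 for other interferon-stimulated genes, and from 1785 to 2430 and 1746 to 2249 over all genes. Deviations of same-numbered libraries correlated at 0.0507 to 0.0906, and those of libraries with different numbers at -0.0931 to 0.0575. Knockout 1 and 3 correlated best with the wild type library of their own number. Knockout 2 correlated best with wild type 3 (0.0575) and knockout 4 with wild type 1 (0.0567). These weak correlations do not settle whether replicate numbers pair the libraries. With the replicate block, 5 antiviral genes were called higher and 6 lower, 1 sensing gene higher, and 2535 and 2401 of all genes. The cause of these shifts was not tested. Low counts limit the 5 untested genes and, among tested ones, Oas2, Ifit1, Oas1a, Isg15 and Mx1, with 137, 253, 267, 276 and 332 counts over all libraries.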

Other observations

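Of 56 other listed interferon-stimulated genes, 12 rose, 6 fell, 32 did not pass and 6 were not tested, with a median log2 fold change of 0.073. Thus 18 of the 50 tested genes were called, a share near the 30.4% of all tested genes. Eif2ak2, the double-stranded RNA kinase PKR, gave the largest fall on this list, from 49.7 ± 5.2 to 15.7 ± 2.85 CPM (-1.65, SE 0.11, edgeR adjusted p = 1.64e-10), and lies 0.824 Mb from Cyp1b1 on chromosome 17. Ifitm3, a membrane protein that blocks virus entry, was chosen after its values were seen and fell by 0.95 on the log2 scale (SE 0.11).

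On the same list, Tgtp1, an interferon-inducible GTPase gene, rose from 9.69 ± 2.33 to 22.9 ± 2.44 CPM (1.23, SE 0.14) and Ifi47 from 76.6 ± 5.77 to 122.1 ± 10.8 CPM (0.67, SE 0.076). Iigp1 and Tgtp2, chosen after their values were seen, rose by 1.14 (SE 0.16) and 0.66 (SE 0.16). Tgtp1 and Tgtp2 share 91.4% and 90.6% of the 50-base windows of their longest transcripts with other genes, each other among them, so their separate values are uncertain. Igtp, also chosen so, was called higher (0.26, edgeR adjusted p = 0.00862), a call that ended without wild type 3 (adjusted p = 0.0607) and with knockout 2 and 3 against wild type 2 to 4 (adjusted p = 0.128). Irgm1 and Irgm2 did not pass (0.11 and 0.10).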
